A study of Mus musculus with 6 samples.

Results

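Antioxidant and metal-binding defence genes were followed in the striatum of Hdh4/Q80 and wild-type mice. The set was defined by gene symbol alone: glutathione transferases and peroxidases, the enzymes that make and recycle glutathione, peroxiredoxins and sulfiredoxin, superoxide dismutases and catalase, thioredoxins and glutaredoxins, metallothioneins, ferritins, and the NRF regulators with KEAP1 and the inducible enzymes NQO1 and heme oxygenase. It comprised 76 probe sets for 58 genes, of 10833 probe sets for 8251 genes that the array annotation names singly. Another 5 probe sets carried a matching symbol together with a second one. Prdx1, Glrx3 and Ftl1 were represented only by such probe sets and were not analysed here.

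Total RNA from 6 striata was measured on Affymetrix arrays, 1 array per mouse, as 3 Hdh4/Q80 mice (replicates 7 to 9) and 3 wild-type littermates (replicates 4 to 6). All were female C57BL/6 mice aged 12 months. Hdh4/Q80 is a mouse model of Huntington's disease in which an expanded CAG repeat lengthens the glutamine tract of the mouse's own huntingtin. The labels call the line transgenic and give neither zygosity nor litter, and no further allele or treatment is named for either group. The values are log2 expression per probe set. Striatum is mixed tissue, so fewer cells of a type and less RNA per cell cannot be told apart in any value here. The array of Hdh4/Q80 replicate 8 stood apart: averaged over the other 5 arrays its correlation was 0.992, where the remaining mice had 0.995 to 0.997 (over probe sets, which are not independent). Spiny projection neuron markers were measured for 8 of 16 entries, and their summed log2 level ran from 73.99 to 76.15 in wild type and from 73.97 to 75.44 in mutants.

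Superoxide dismutases turn superoxide into hydrogen peroxide, which catalase, glutathione peroxidases and peroxiredoxins then remove. Glutathione and thioredoxin supply the electrons for glutathione peroxidases and peroxiredoxins and are themselves re-reduced at the expense of NADPH. Metallothioneins are small cysteine-rich proteins that bind zinc and copper, and ferritin stores iron. The transcription factor NRF2 (Nfe2l2), held in check by KEAP1, drives many of these genes through antioxidant response elements, while metallothioneins answer to zinc through metal response elements. In brain, astrocytes hold much of the glutathione and metallothionein machinery.

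No antioxidant or metal-binding gene passed the test of mutants against wild types. With limma and p-values adjusted by Benjamini-Hochberg over the 12422 probe sets tested, 0 of the 76 members were called at 0.05, as were 0% of all probe sets, and the smallest adjusted p among members was 0.857. Without adjustment, 7 of 76 member probe sets (9.21%) had a p under 0.05, beside 5.1% of all probe sets (634 of 12422). Of these 7, 3 were higher and 4 lower in mutants, against 2.9% and 2.21% of all probe sets. After quantile normalization or cyclic loess the split was 5 higher and 3 lower. The 3 mutants lay wholly outside the range of the 3 wild types for 17 member probe sets, 8 above and 9 below. For all probe sets the background was 11.7%, with 6.67% above and 5.05% below.

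The differences were small and went both ways. The fitted difference (mutant minus wild type) was below 0 for 38 member probe sets and above 0 for 38, where 51.1% of all probe sets were below 0. By gene, on the brightest probe set, 31 of 58 were below 0 beside 53.3% of all genes. The median difference over member probe sets was 0.0013 on the log2 scale, beside -0.0027 over all probe sets, and single differences ran from -0.33 to 0.23. Regardless of sign, the median difference was 0.093 over member probe sets, beside 0.066 over all. By gene, on the brightest probe set, it was 0.069 beside 0.064. The 95% interval excluded a 1.5-fold change in either direction for all 76 and a 1.25-fold change for 54. Of all 12422 probe sets, 12254 excluded a 1.5-fold and 9408 a 1.25-fold change. These limits refer to the authors' normalized array scale. Of the 76, 7 lay below the lower quartile of probe-set means (5.82).

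**Figure D1:**
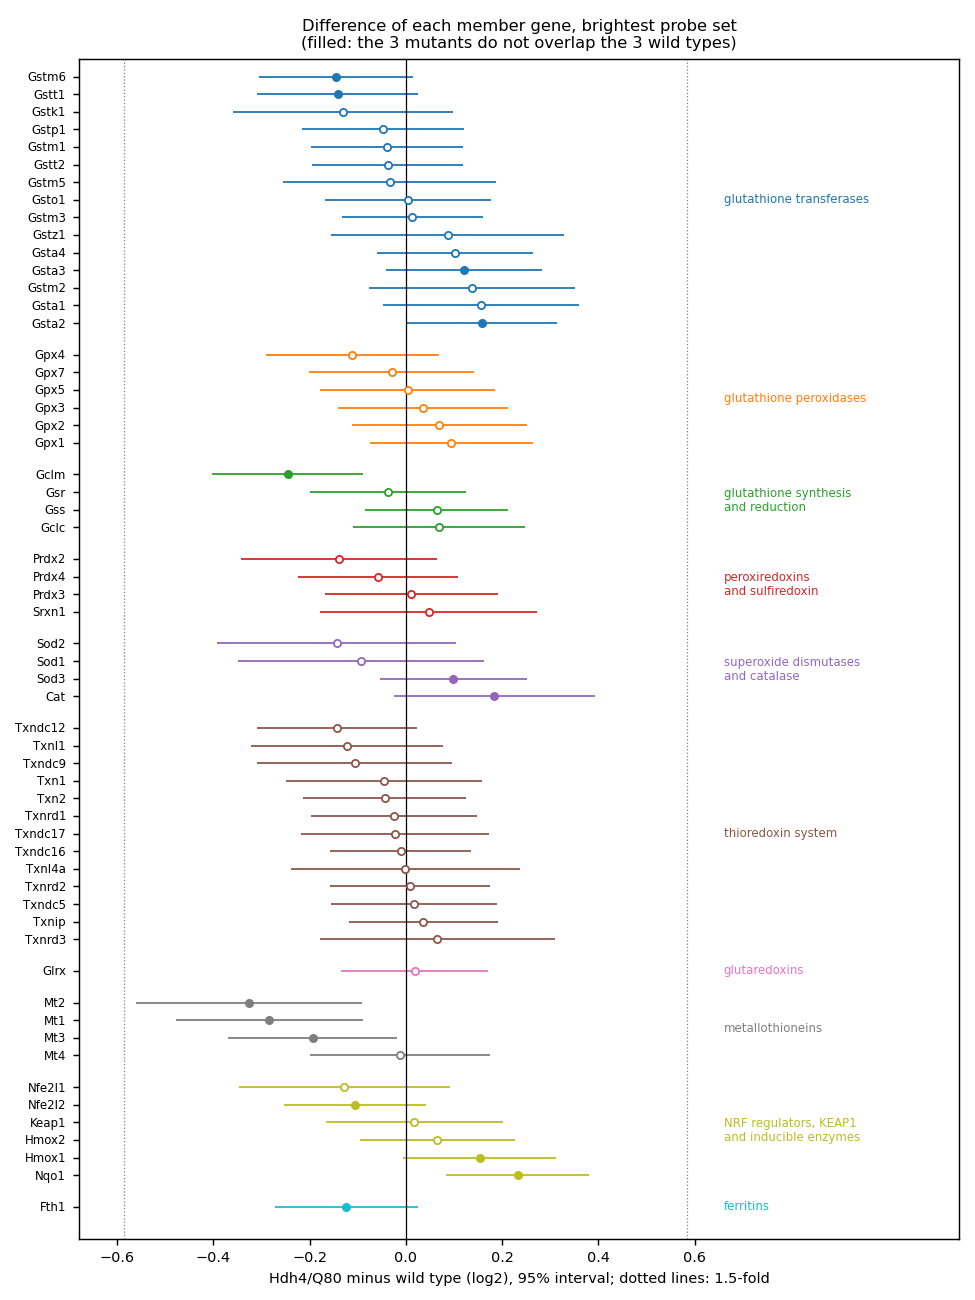
Hdh4/Q80 minus wild-type difference on the log2 scale (x axis) for the brightest probe set of each of the 58 genes, arranged by role. Bars are 95% intervals, dotted lines mark 1.5-fold, and filled points mark probe sets where the 3 mutants do not overlap the 3 wild types. All intervals lie inside the dotted lines, and Mt1, Mt2, Mt3 and Gclm lie farthest to the left.

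Mt1, Mt2 and Mt3, of the 4 metallothionein genes, were lower in every mutant than in every wild type. Of all probe sets, 5.05% had the mutants wholly below the wild types. Mt1 and Mt2 are the widely expressed, zinc- and stress-inducible isoforms, Mt3 is the brain-enriched form, and Mt4 belongs to stratified epithelium. Their genes lie together on chromosome 8, and the upstream sequences of the 3 brain-expressed genes are shown here because these members shared a direction and because metal response elements are the known control of the family. The RefSeq sequences (GRCm38.p6, plus strand, the 250 bases before the annotated start) cover chr8:94178839-94179088 for Mt1, chr8:94172368-94172617 for Mt2 and chr8:94152357-94152606 for Mt3. Capitals mark matches to the metal response element core, searched as TGCACNC or TGCGCNC on both strands.
Mt1: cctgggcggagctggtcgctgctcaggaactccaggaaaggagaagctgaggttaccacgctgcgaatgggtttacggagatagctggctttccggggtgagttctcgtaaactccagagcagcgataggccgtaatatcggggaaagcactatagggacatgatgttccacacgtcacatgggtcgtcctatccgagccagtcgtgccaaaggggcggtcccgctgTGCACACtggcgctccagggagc
Mt2: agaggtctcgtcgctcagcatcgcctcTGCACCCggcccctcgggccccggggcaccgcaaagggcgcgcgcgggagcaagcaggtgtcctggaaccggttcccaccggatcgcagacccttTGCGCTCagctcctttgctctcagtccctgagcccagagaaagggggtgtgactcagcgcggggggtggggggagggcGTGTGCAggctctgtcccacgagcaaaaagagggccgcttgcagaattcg
Mt3: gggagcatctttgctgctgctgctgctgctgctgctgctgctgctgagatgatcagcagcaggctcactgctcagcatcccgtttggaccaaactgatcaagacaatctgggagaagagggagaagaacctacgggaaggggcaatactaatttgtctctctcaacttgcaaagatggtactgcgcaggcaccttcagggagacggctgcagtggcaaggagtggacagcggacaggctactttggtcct

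With the 50 bases after the start included, the window held 3 matches in Mt1, 4 in Mt2 and 1 in Mt3, and Mt3 had none before the start. Windows of this length were found for 50 of the 58 genes, 69 windows in all. Of these, 22 (31.9%) held a metal response element match, where 25.7% of all 32851 promoters of the same length did. A window with 3 or more matches occurred in 3 of 69 (4.35%), those of Mt1, Mt2 and Gclm, against 1.97% of all promoters. A match is a description of the letters and not a binding site.

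Mt1 read 11.97, 11.72 and 11.88 in the wild types and 11.60, 11.46 and 11.66 in the mutants (replicates 7, 8 and 9). The lowest wild type was above the highest mutant, with replicate 8 lowest of all. The means were 11.86 ± 0.126 and 11.57 ± 0.102 (SD, n = 3 mice per group). Mutants were 1.22-fold lower (difference -0.28, 95% interval -0.48 to -0.09), which did not pass limma's test (adjusted p = 0.857). The Mt1 difference shrank to -0.24 after quantile normalization and to -0.22 after cyclic loess. Mt2 read 11.74, 11.33 and 11.38 in the wild types against 11.16, 11.11 and 11.20 in the mutants. The wild types of Mt2 were spread more widely than the mutants (SD 0.224 against 0.0447), because replicate 4 lay above the other 2. Its difference was -0.33 (interval -0.56 to -0.09), 1.25-fold lower, and became -0.20 without wild-type replicate 4. After quantile normalization the Mt2 difference was -0.27 and after cyclic loess -0.26. Mt3 read 13.02, 13.01 and 13.09 against 12.89, 12.72 and 12.94. This is a narrow gap at a level close to the top of the arrays (highest value 14.24). The Mt3 difference was -0.19 (interval -0.37 to -0.02), -0.13 without Hdh4/Q80 replicate 8 and -0.11 after cyclic loess. Mt4 read 6.56 ± 0.101 and 6.55 ± 0.109, a difference of -0.01 (interval -0.20 to 0.17), with the groups overlapping. The adjusted p was 0.857 for Mt2 and Mt3 and 0.983 for Mt4, so none of the 4 passed.

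The summed levels of the microglia, oligodendrocyte and erythroid marker lists did not overlap between groups and were lower in the mutants. After adjustment 0 markers passed limma's test, as did 0% of all probe sets. An unadjusted p under 0.05 was found for 4 of 10 microglia, 2 of 9 oligodendrocyte and 2 of 4 erythroid markers. It was also found for 2 of 10 astrocyte, 1 of 10 endothelial and mural, and 1 of 5 choroid plexus and ependyma markers. For projection neurons it was 0 of 8, and for all genes by brightest probe set 4.3%. Of 10 measured microglia markers 9 had differences below 0, and the list's summed log2 level ran from 84.23 to 85.02 in wild type and from 82.07 to 83.96 in mutants. Oligodendrocyte markers (9 measured, 7 below 0) summed to 82.50 to 83.30 against 81.55 to 82.39. Astrocyte markers (10 measured, 7 below 0) overlapped between groups, at 87.95 to 88.33 against 87.17 to 88.08. Erythroid markers (4 measured, 3 below 0) summed to 34.00 to 34.69 against 33.51 to 33.95. The 5 measured choroid plexus and ependyma markers were spread widely in both groups, at 33.77 to 37.36 against 33.97 to 40.55, with 0 of 5 below 0. Endothelial and mural markers (10 measured, 5 below 0) summed to 70.36 to 71.23 against 70.36 to 70.46. Values made by robust multi-array average hold no zeros, so no defining marker could be called absent. The part of these lists in the metallothionein values was not tested.

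**Figure D2:**
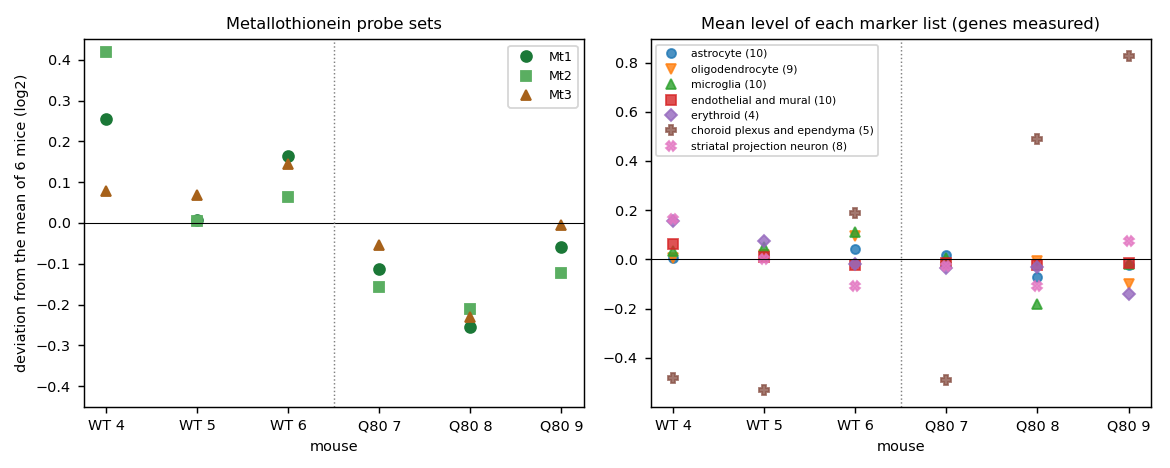
Deviation of each mouse from the mean of the 6 mice (y axis, log2; the scales differ between panels) for Mt1, Mt2 and Mt3 on the left and for the mean level of each marker list on the right, with the number of genes measured in brackets. For all 3 metallothioneins the mutants lie below the wild types, as in 5.05% of all probe sets. The choroid plexus list separates mice of the same group.

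Among the enzymes of glutathione synthesis, Gclm was set apart from wild type and the other 3 genes overlapped with it. Gclm, the modifier subunit of glutamate-cysteine ligase, which sets the pace of glutathione synthesis, read 7.30, 7.17 and 7.24 in wild type and 7.05, 6.98 and 6.95 in mutants. No mutant reached the lowest wild type. The difference was -0.25 (interval -0.40 to -0.09), 1.19-fold lower, with an adjusted p of 0.857 in limma (0.00596 unadjusted). With 1 mouse left out it ran from -0.28 to -0.21. Gclc, the catalytic subunit, read 7.46, 7.41 and 7.31 against 7.44, 7.58 and 7.37, a difference of 0.07 (interval -0.11 to 0.25) with overlapping groups. Leaving out 1 mouse gave 0.0087 (replicate 8), 0.025 (replicate 6) and 0.11 (replicate 9). Gss, glutathione synthetase, differed by 0.06 (interval -0.09 to 0.21) on its brighter probe set, at 8.98, 8.96 and 8.96 against 9.04, 9.08 and 8.97. That difference was 0.037 without replicate 8 and 0.098 after cyclic loess. Its other probe set, with an r_at suffix, differed by -0.07. Gsr, which re-reduces oxidised glutathione, read 8.25, 8.15 and 8.14 against 8.20, 8.06 and 8.16, a difference of -0.04 (interval -0.20 to 0.13). The difference between the 2 ligase subunits was not tested.

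Gclm is also a known NRF2 target, and its upstream sequence is shown because it held a match to the antioxidant response element core, searched as TGACNNNGC on both strands. The 250 bases before the RefSeq start (GRCm38.p6, plus strand) cover chr3:122245307-122245556, and capitals mark the match, which lies on the minus strand and overlaps a metal response element match.
Gclm: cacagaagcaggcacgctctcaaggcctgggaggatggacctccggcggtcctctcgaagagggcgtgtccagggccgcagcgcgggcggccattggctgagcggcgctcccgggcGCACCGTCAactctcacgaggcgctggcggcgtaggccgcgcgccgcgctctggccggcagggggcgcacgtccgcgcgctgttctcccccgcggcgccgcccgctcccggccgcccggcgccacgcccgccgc

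Matches to this core were found in 9 of the 69 member windows (13.0%) and in 12.4% of all 32851 promoters. Besides Gclm the 9 belonged to Gsta3, Gstm5, Mt2, Nfe2l2, Sod1, Srxn1, Txndc5 and Txnrd1. The Mt2 match is TGACTCAGC and the Nfe2l2 match TGACTCCGC. The window of Nqo1 held none, and Hmox1 had no entry in the promoter table. A window without a match says only that these letters are not in it.

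NRF2 itself had a difference below 0 and its known targets went both ways, with Nqo1 and Hmox1 above 0 and Gclm below. None of them passed. Of 14 further NRF2 targets and partners, 10 were below 0 and 4 above, where 53.3% of all genes were below 0. Nfe2l2 read 7.54, 7.47 and 7.54 in wild type and 7.39, 7.45 and 7.39 in mutants. The 3 mutants lay just below the 3 wild types, a difference of -0.11 (interval -0.25 to 0.04; adjusted p = 0.857 in limma's test). Nqo1, a quinone reductase and one of the best known NRF2 targets, was the member of smallest unadjusted p (0.00589). Its brighter probe set read 5.16, 5.16 and 5.11 against 5.35, 5.43 and 5.35, with every mutant above every wild type. The difference was 0.23 (interval 0.08 to 0.38), 1.17-fold higher, and the adjusted p was 0.857. The second Nqo1 probe set gave a like difference of 0.22 (interval 0.02 to 0.42) with groups that just overlapped, at 4.92, 5.12 and 4.96 against 5.12, 5.38 and 5.17. Without Hdh4/Q80 replicate 8 that second difference was 0.14. Both probe sets carry a suffix (f_at and r_at) that marks less specific probes, and all 12 of their values were under the arrays' lower quartiles (5.79 to 5.86), so their level was dim.

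Hmox1, the inducible heme oxygenase that frees iron from heme, read 8.33, 8.27 and 8.18 against 8.36, 8.45 and 8.43. All 3 mutants were above the wild types, by 0.15 on average (interval -0.01 to 0.31; adjusted p = 0.857 in limma's test). Hmox2, the constitutive form, read 6.84, 6.73 and 6.80 against 6.79, 6.93 and 6.84, a difference of 0.06 (interval -0.10 to 0.23). Array weights, which among the mutants leaned on replicate 7 (weight 6.19, against 0.228 and 0.405 for replicates 8 and 9), made it 0.0057. The Hmox2 difference was 0.025 if replicate 8 was left out, 0.034 if replicate 5 was and 0.099 if replicate 7 was. Keap1, the inhibitor of NRF2, overlapped between groups, at 5.98, 5.83 and 6.05 against 5.99, 5.87 and 6.05, a difference of 0.02 (interval -0.17 to 0.20). Nfe2l1, the related factor NRF1, differed by -0.13 on both of its probe sets. The brighter one read 10.17, 10.11 and 10.21 against 10.08, 9.82 and 10.20, with replicate 8 alone below the rest, and its difference was -0.02 without that mouse, -0.21 without replicate 9 and -0.08 after quantile normalization or cyclic loess.

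**Figure D3:**
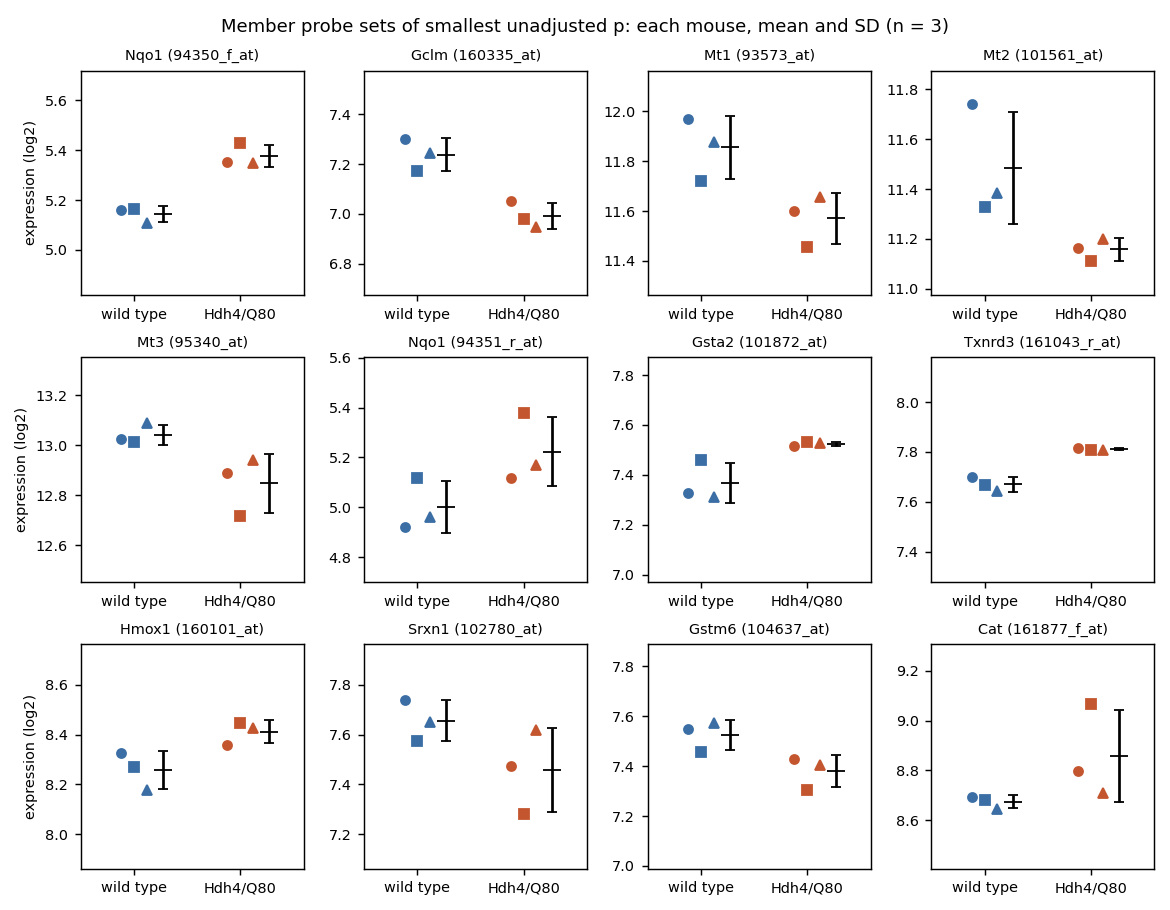
Expression in each mouse (y axis, log2, the same span of 0.9 in every panel) for the 12 member probe sets of smallest unadjusted p. Circles, squares and triangles are replicates 4, 5 and 6 for wild type and 7, 8 and 9 for Hdh4/Q80, and bars are mean and SD (n = 3). The groups do not overlap in 10 of the 12 panels, and the exceptions are the second Nqo1 probe set and Srxn1. Choosing panels by p favours such separation, which was seen in 17 of all 76 members and in 11.7% of all probe sets.

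Superoxide dismutases and catalase showed no common direction. Sod1, the cytosolic copper-zinc enzyme, read 10.05, 9.83 and 9.79 in wild type and 9.72, 9.63 and 10.04 in mutants. Mutants 7 and 8 lay below every wild type, and mutant 9 lay within the wild-type range. The Sod1 difference was -0.09 (interval -0.35 to 0.16) and rested on single mice: leaving out mutant 9 gave -0.22, mutant 8 -0.0078, mutant 7 -0.054, wild type 4 -0.012 and wild type 6 -0.14. After quantile normalization it was -0.044 and after cyclic loess -0.046. Sod2, the mitochondrial manganese enzyme, read 7.29, 7.27 and 7.41 against 7.26, 6.91 and 7.37. Replicate 8 stood below every other mouse, and the Sod2 difference of -0.14 (interval -0.39 to 0.11) became -0.0098 without it, -0.24 without replicate 9 and -0.086 with array weights. Sod3, the extracellular form, was slightly above wild type in all 3 mutants, at 8.045, 7.96 and 8.03 against 8.051, 8.13 and 8.15 (difference 0.10, interval -0.05 to 0.25, and 0.047 with array weights). Cat, the peroxisomal catalase, read 8.69, 8.68 and 8.65 against 8.80, 9.07 and 8.71 on its brighter probe set. The mutants did not overlap the wild types, but replicate 8 carried most of the difference of 0.18 (interval -0.03 to 0.39), which was 0.08 without that mouse. The other Cat probe set differed by 0.12 with overlapping groups. Adjusted p-values in limma's test were 0.857 to 0.899 for these 4 genes.

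Among peroxide-removing enzymes, no probe set had an unadjusted p under 0.05, beside 5.1% of all probe sets that did. The 6 glutathione peroxidase genes differed by -0.11 to 0.09 on their brightest probe sets. Gpx1, the abundant cytosolic selenoenzyme, read 8.68, 8.76 and 8.67 against 8.69, 8.89 and 8.81 (difference 0.09, interval -0.07 to 0.26). Gpx4, which repairs lipid peroxides in membranes, read 8.55, 8.51 and 8.62 against 8.39, 8.59 and 8.36, a difference of -0.11 (interval -0.29 to 0.07). In both genes the groups overlapped. The Gpx1 difference was 0.15 without replicate 7, 0.048 without replicate 8 and 0.0056 with array weights, and that of Gpx4 was -0.18 without replicate 8, -0.17 with array weights and -0.067 without replicate 9. Gpx3, the secreted form, read 7.79, 7.84 and 7.83 against 7.99, 7.85 and 7.73, with a difference of 0.04 (interval -0.14 to 0.21). Gpx2, Gpx5 and Gpx7 lay between -0.03 and 0.07 on their brightest probe sets. The dimmer probe set of Gpx5 read 6.27, 6.40 and 6.37 against 6.40, 6.58 and 6.42, with every mutant above every wild type by a small margin (difference 0.12, interval -0.05 to 0.29).

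Peroxiredoxins were measured for Prdx2, Prdx3 and Prdx4. Prdx2, a cytosolic form prominent in neurons, read 10.11, 9.996 and 10.09 in wild type and 10.02, 9.73 and 10.03 in mutants, a difference of -0.14 (interval -0.34 to 0.06) with replicate 8 lowest. A second probe set gave -0.14 and the third, a very dim one, 0.02. Mitochondrial Prdx3 differed by 0.01 (interval -0.17 to 0.19) and Prdx4 of the endoplasmic reticulum by -0.06 (interval -0.22 to 0.11). Srxn1, the enzyme that restores over-oxidised peroxiredoxins and another NRF2 target, gave opposite signs on its 2 probe sets. One read 7.74, 7.58 and 7.65 against 7.47, 7.28 and 7.62 (difference -0.20, interval -0.41 to 0.01, and -0.11 without replicate 8). The other, with an i_at suffix, read 7.85, 7.82 and 7.78 against 7.74, 8.11 and 7.75 (difference 0.05, interval -0.18 to 0.27). Replicate 8 was the lowest mouse on the first and the highest on the second, so no direction can be given for Srxn1.

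Of 13 genes grouped by symbols beginning with Txn, 9 were below 0 and 4 above on their brightest probe sets. Of all genes, 53.3% were below 0. The 13 differences ran from -0.14 to 0.07, with a median of -0.02. The groups did not overlap for 0 of these probe sets, beside 11.1% of all genes. Txn1, the cytosolic thioredoxin, read 8.84, 8.69 and 8.90 against 8.83, 8.60 and 8.86 (difference -0.05, interval -0.25 to 0.16). Its mitochondrial partner Txn2 differed by -0.04 (interval -0.21 to 0.13). Txnrd1, the cytosolic reductase, read 7.78, 7.81 and 7.66 against 7.79, 7.62 and 7.77, a difference of -0.02 (interval -0.20 to 0.15), and Txnrd2, the mitochondrial one, differed by 0.01. Txnip, the thioredoxin-binding protein that responds to glucose, read 8.30, 8.25 and 8.30 against 8.29, 8.40 and 8.27, a difference of 0.04 (interval -0.12 to 0.19). In all of these the groups overlapped. Txnrd3 gave 7.70, 7.67 and 7.64 against 7.82, 7.81 and 7.81 on one probe set (difference 0.14, interval -0.00 to 0.28; adjusted p = 0.857 in limma's test), with mutants that were almost equal and all above wild type. Its brighter probe set, at 11.06, 11.12 and 11.14 against 11.11, 11.43 and 10.96, had overlapping groups and a difference of 0.07. Glrx, the glutaredoxin measured, read 7.58, 7.61 and 7.63 against 7.60, 7.70 and 7.58 (difference 0.02, interval -0.13 to 0.17).

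Glutathione transferases, which join glutathione to electrophiles, formed the largest group, with 15 genes on 22 probe sets. By gene, 7 were below 0 and 8 above (median 0.0048 on the log2 scale), where 53.3% of all genes were below 0. An unadjusted p under 0.05 was found for 1 of the 15, beside 4.3% of all genes by brightest probe set. That was Gsta2, an alpha-class enzyme, at 7.33, 7.46 and 7.31 in wild type and 7.52, 7.53 and 7.53 in mutants. All 3 mutants were above the wild types, by 0.16 (interval 0.00 to 0.31; adjusted p = 0.857 in limma's test). All 4 alpha-class genes (Gsta1 to Gsta4) had differences above 0, from 0.10 to 0.16, but the probe sets of Gsta1 and Gsta3 were dim. Alpha-class sequences are alike, so these probe sets may share targets. In the opposite direction, Gstm6 read 7.55, 7.46 and 7.57 against 7.43, 7.31 and 7.41 (difference -0.15, interval -0.30 to 0.01), and its other, dim probe set gave -0.16. Gstt1, of the theta class, read 7.36, 7.42 and 7.42 against 7.29, 7.14 and 7.34, also with every mutant below every wild type (difference -0.14, interval -0.31 to 0.02).

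Gstm1 and Gstp1, transferases known from glia, overlapped between groups. Gstm1, a mu-class enzyme strong in astrocytes, read 11.47, 11.41 and 11.33 against 11.35, 11.33 and 11.41 on its brighter probe set, a difference of -0.04 (interval -0.20 to 0.12) that turned to 0.02 and 0.03 after quantile normalization and cyclic loess. Its r_at probe set read 8.36, 8.36 and 8.29 against 8.47, 8.75 and 8.26, where replicate 8 was highest. The r_at difference of 0.15 was 0.028 without replicate 8 and 0.27 without replicate 9. Gstp1, the pi-class enzyme, read 10.76, 10.69 and 10.73 against 10.69, 10.56 and 10.78, with a difference of -0.05 (interval -0.22 to 0.12). The 4 Gstm5 probe sets gave differences of -0.11, -0.03, 0.03 and 0.10. The mu-class genes are near-identical in places, so signal from one can reach the probe sets of another.

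Fth1, the ferritin heavy chain that oxidises and stores iron, read 12.43, 12.39 and 12.50 in wild type and 12.32, 12.33 and 12.29 in mutants. All 3 mutants were below the wild types, by 0.12 on average, and the mutants differed little among themselves (SD 0.0191). The fitted difference was -0.12 (interval -0.27 to 0.03; adjusted p = 0.857 in limma's test), and it ran from -0.15 to -0.09 with 1 mouse left out. It was -0.061 after quantile normalization and -0.047 after cyclic loess. A second probe set, with an r_at suffix, read 12.09, 12.11 and 12.16 against 12.16, 12.39 and 11.84. There the mutants spread on both sides of the wild types, and the difference was 0.0075 (interval -0.26 to 0.27).

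Of the 15 member genes with several probe sets, 8 had the same sign on all of them and 7 did not. The 8 were Cat, Gpx5, Gstm2, Gstm6, Nfe2l1, Nqo1, Txnip and Txnrd3. The 7 were Fth1, Gss, Gstm1, Gstm3, Gstm5, Prdx2 and Srxn1.

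**Figure D4:**
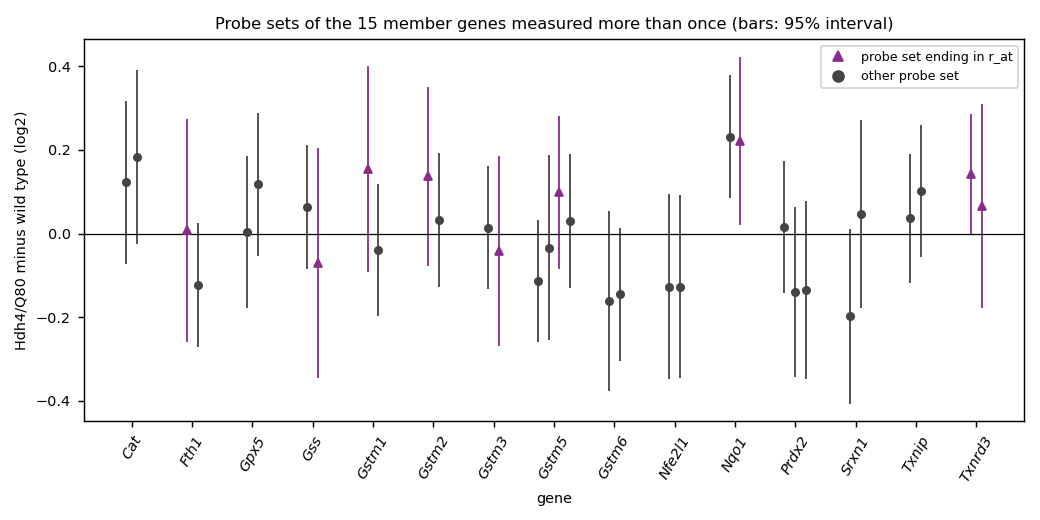
Hdh4/Q80 minus wild-type difference (y axis, log2) for each probe set of the 15 member genes measured more than once, with 95% intervals. Triangles are probe sets with an r_at suffix. Both Nqo1 probe sets lie above 0, while the Fth1, Srxn1 and Gstm1 pairs lie on different sides of 0 or close to it.

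Hdh4/Q80 replicate 8, the array that stood apart, was the lowest of the 6 mice for 34 of 76 member probe sets (44.7%) and the highest for 22 (28.9%), beside 33.7% and 28.1% of all probe sets. The SD was larger in mutants than in wild type for 62 of 76 members (81.6%), beside 70.7% of all probe sets. Without replicate 8, 6 of 76 members (7.89%) had an unadjusted p under 0.05 beside 4.03% of all probe sets, and 21 did not overlap, where 18.4% of all probe sets did not. Without replicate 9, 15 of 76 (19.7%) had one beside 9.28% of all, and 36 did not overlap beside 28%, 21 of them below wild type and 15 above. In both cases 0 passed after adjustment with limma.

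**Figure D5:**
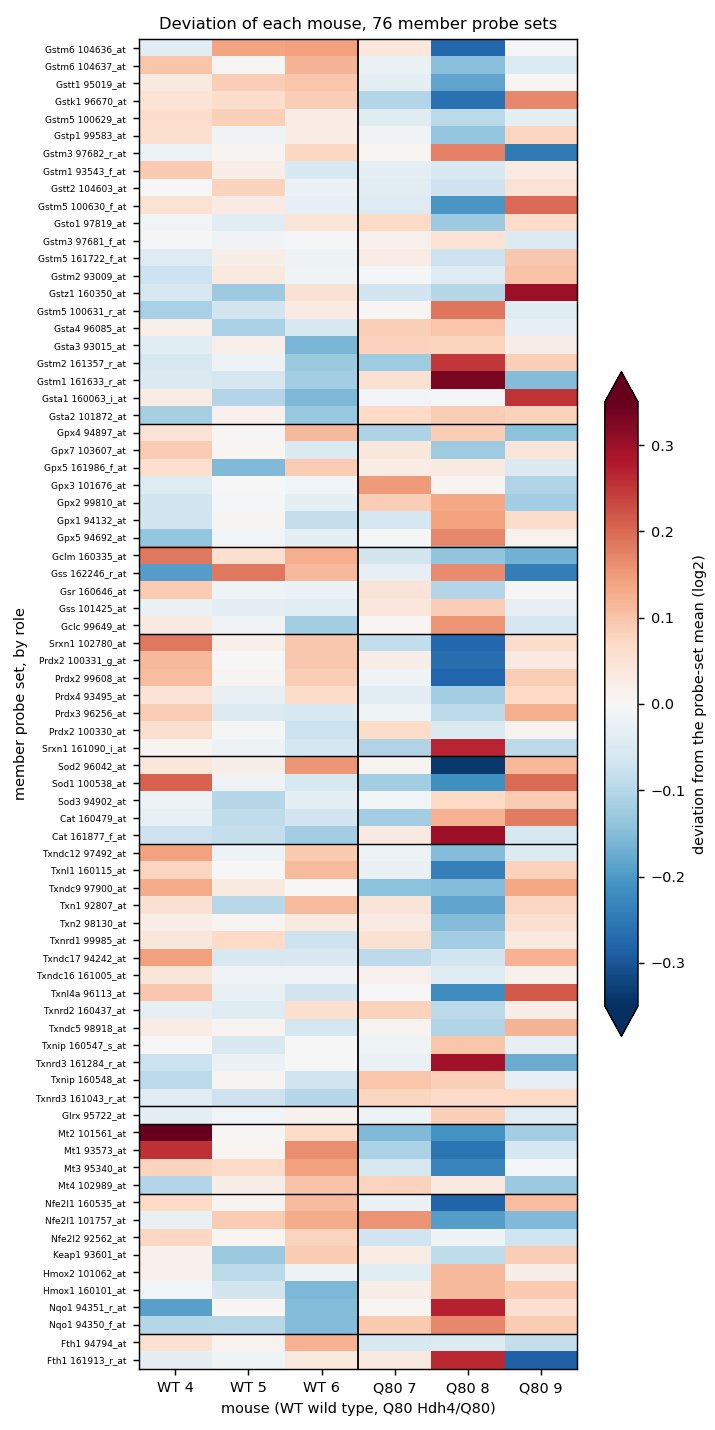
Deviation of each mouse from the mean of each of the 76 member probe sets (colour, log2, capped at 0.35 either way), with rows grouped by role and columns by mouse. The Mt1, Mt2 and Mt3 rows change colour between the groups. The column of Hdh4/Q80 replicate 8 varies most (SD of its deviations 0.169, against 0.0595 to 0.113 in the other mice). The deepest colour above the mean is that of Mt2 in wild-type replicate 4.

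Other genes of these pathways, taken from lists of NADPH supply, cystine uptake and glutathione turnover, further NRF2 targets and partners, oxidant repair, and iron, copper and zinc handling, gave 0 calls among 63 measured genes. At an unadjusted p under 0.05 there were 0 of 63, where 4.3% of 8251 genes by brightest probe set were at that level. The groups did not overlap for 5 of 63, beside 11.1% of genes. Of the 63, 34 were below 0 and 29 above, with a median difference of -0.0082. In metal handling (21 measured) the member of smallest p was Cox17, a copper chaperone for cytochrome oxidase, at 9.30, 9.21 and 9.25 against 9.14, 8.78 and 9.22 (difference -0.21, interval -0.45 to 0.04). Among 14 further NRF2 targets and partners, Ugdh, which makes UDP-glucuronate, differed by 0.15 (interval -0.01 to 0.31), with all 3 mutants above wild type, and Cul3, the ubiquitin ligase scaffold that works with KEAP1, by -0.17 (interval -0.37 to 0.03). Of 10 NADPH-supplying enzymes, Taldo1 differed by -0.17 (interval -0.39 to 0.06) and Pgd by 0.10 (interval -0.05 to 0.25), which lie in the same pentose phosphate pathway. Among 8 cystine and glutathione turnover genes the extremes were -0.10 and 0.10, and among 10 repair genes Mgst3 was at -0.18 (interval -0.44 to 0.08).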

How the data were processed

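Each file value is a log2 level of 1 probe set, which the authors computed with RMA (robust multi-array average) and the affy software according to the submitters' processing notes, where no version is named. RMA brings the intensity distributions of arrays together, which can remove a global change. The file values were close between arrays but not equal, with medians of 7.10 to 7.13 and lower quartiles of 5.79 to 5.86. No detection calls were used here. Groups and replicate numbers came from sample titles. Of 12488 probe sets, 66 controls were left out and 12422 tested without a filter on low values. Gene names came from the platform annotation (10833 probe sets with 1 symbol, 396 with several, 1193 with none). All 58 member genes matched the reference gene table by identifier and symbol.

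Groups were compared with limma (3.58.1, run under R version 4.3.3) (eBayes moderation, residual df 4, prior df 5.81). P-values were adjusted by Benjamini-Hochberg over all 12422, with a threshold of 0.05 and 95% intervals. The fit was tested on simulated data. Full values were given for the 12 member probe sets of smallest p, the 5 with the largest SD within a group, and a fixed panel of genes, by the brightest probe set. Up to 2 related genes of smallest p were named per list. Other members named in the text were chosen after their values were seen. The members and lists were chosen with earlier results of these data known. Each array is 1 mouse by the design text, and the small number of arrays limits precision. Alternatives changed the dim filter, normalization, centring, moderation, array weights, probe-set summary and type, and the mice included.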

Additional observations from a re-analysis of the deposited data

How the results depend on the processing

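No member probe set and no related gene passed under any alternative: both counts stayed at 0 after the dim filter, quantile normalization, cyclic loess, median centring, trended and robust moderation, array weights, averaging a gene's probe sets, dropping suffixed probe sets, and leaving out each mouse. Array weights gave the smallest adjusted p for Nqo1 (0.111, against 0.13 for Mt1), with 23 of 76 members at an unadjusted p under 0.05 beside 14.6% of all probe sets. The median member difference of 0.0013 became -0.024 without the dimmest 40% of probe sets, -0.027 without suffixed probe sets, and -0.024 to 0.0089 with 1 mouse left out. With 1 mouse left out, 18 to 36 members did not overlap, beside 16.3% to 28% of all probe sets; the 36 came without Hdh4/Q80 replicate 9 and stand beside the 28%. Members at an unadjusted p under 0.05 then numbered 4 to 15, beside 2.02% to 9.28% of all, and related genes 0 to 6. Signs turned for members near 0. After quantile normalization Gstp1 was 0.0012, Gstm1 0.022 and Keap1 -0.0082, and after cyclic loess 0.010, 0.025 and -0.0069. With array weights Gsr was 0.032, Txn1 0.0023, Srxn1 (i_at) -0.058, Txnrd1 0.052 and Glrx -0.013. Averaging probe sets gave Fth1 -0.058, Gss -0.0033, Gstm1 0.058 and Srxn1 -0.075. With 1 mouse left out, ranges that crossed 0 were -0.12 to 0.15 (Fth1, r_at), -0.066 to 0.17 (Txnrd3, brighter), -0.097 to 0.0091 (Gstp1), -0.0040 to 0.059 (Txnip), -0.068 to 0.0056 (Gsr), -0.10 to 0.036 (Txn1), -0.074 to 0.11 (Srxn1, i_at), -0.030 to 0.097 (Gpx3), -0.067 to 0.030 (Txnrd1), -0.019 to 0.042 (Glrx) and -0.044 to 0.066 (Keap1). The causes were not tested. No paired analysis was possible because the groups share no replicate number. Low signal limits Nqo1, Keap1, Gsta1 and Gsta3.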

Other observations

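Probe sets with an r_at suffix, which Affymetrix assigned where probes had to be chosen under relaxed rules, stood out in 1 mouse. Hdh4/Q80 replicate 8 was the highest of the 6 mice for 7 of the 9 member probe sets of this kind (77.8%) and for 42.6% of all 901 such probe sets. For probe sets with no suffix it was the highest in 10 of 56 members (17.9%) and in 25.7% of all 9614. Probe sets with an f_at suffix lay between, at 3 of 7 members (42.9%) and 37.7% of all 1075. With the i_at, g_at and s_at suffixes replicate 8 was the highest for 32.4%, 31.2% and 23.5% of all probe sets of each kind. The median gap between replicate 8 and the mean of the other 2 mutants was 0.29 on the log2 scale over the 9 members and 0.06 over all r_at probe sets. Over members with no suffix the median gap was -0.12, and over all probe sets with no suffix -0.03. Its part in the Fth1, Gstm1, Gstm2 and Txnrd3 values was not tested. This pattern was noticed in the data and then counted.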
